A study of Mus musculus with 30 samples.

Results

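The genes described here encode, in the nucleus, the subunits of the mitochondrial oxidative phosphorylation system. They were found by their names on the array, as every gene whose name begins with Ndufa, Ndufb, Ndufc, Ndufs, Ndufv, Uqcr, Cox4 to Cox8 or Atp5, together with Sdha, Sdhb, Sdhc and Sdhd. Cox6a2, a muscle isoform, was left out. The search returned 125 probes of 88 genes among 28146 named genes. Of these, 81 were counted as subunits and placed by the start of their names, Ndufa4 in complex I and Cox7a2l in complex IV. Complex I has 37, complex II 4, complex III 8, complex IV 17 and complex V 15. The other 7 were caught by name only: Ndufaf1 to Ndufaf4 are assembly factors of complex I, Cox4nb is a neighbour of Cox4i1, and Atp5s and Atp5sl are not counted as subunits. No probe for Ndufa4l2 was found.

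Oxidative phosphorylation takes place in the inner mitochondrial membrane. Complex I (NADH dehydrogenase) and complex II (succinate dehydrogenase) pass electrons through complex III to complex IV (cytochrome c oxidase), which reduces oxygen, and the proton gradient built by complexes I, III and IV drives ATP synthesis by complex V. Apart from complex II, each complex mixes subunits from the mitochondrial and the nuclear genome. Several nuclear subunits, chiefly of cytochrome c oxidase, exist as a form present in most tissues and a form known from muscle, lung or testis. Neurons and photoreceptors are both known for a high demand for ATP.

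RNA came from adult male mice on a C57BL/6J background, either Per3-/- mice, which carry a targeted disruption of the clock gene Per3, or their wild-type (WT) litter mates. All were housed alone and, after ordinary light-dark days, lived through 17 ultradian cycles of 3.5 h light and 3.5 h dark, and were killed in light during the last cycle. The array measured a block of hypothalamus around the optic chiasm, suprachiasmatic nuclei included, from 8 WT and 8 Per3-/- mice, and the whole eye from 7 WT and 7 Per3-/- mice, each sample from 1 mouse. The question of the study was how loss of Per3 alters expression in either tissue. Both tissues came from the same mice, so tissue is the other contrast the design holds.

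Levels are given as log2 of the background-subtracted signal relative to the 75th percentile of the same array, so 0 is that percentile and a difference of 1 is a doubling. Different probes bind with different efficiency, so a level is compared only with the level of the same probe in other samples. Where a gene had several probes, the brightest represents it. Between 68.0% and 80.8% of all probes on an array were well above background. Of the 125 probes, 119 were well above background on all 30 arrays, and 0 spots were saturated. Eye and hypothalamus arrays were scanned on separate days and on separate slides, so array batch and tissue cannot be told apart. In whole tissue, fewer cells of a type and less RNA per cell cannot be told apart either.

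The tissue labels were checked against marker lists. Markers of rod photoreceptors (7 of 7), lens (6 of 6) and skeletal muscle (13 of 13) were well above background on every eye array and higher in the eye. In the hypothalamus all 8 markers of hypothalamic neurons, Avp and Pmch among them, were well above background on every array, and 6 of the 8 were so on every eye array too. In WT mice 6 of them were lower in the eye, Six6, known also from the retina, was higher, and Vip did not pass the test. Markers of the choroid plexus spread widely between hypothalamic blocks, their mean level ranging from -3.06 to 1.08 in WT and from -2.91 to 1.35 in Per3-/- mice. Those of the anterior pituitary ranged from -4.15 to 0.06 and from -4.04 to 4.80.

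The probes behind the largest tissue differences are printed first, because the finding rests on what each 60-mer detects. They are given in the 5′ to 3′ sense with their mm9 positions in the array files. Both probes for Ndufa11, an accessory subunit of the membrane arm of complex I, lie on the plus strand and share 50 of their 60 bases, in capitals. That for Cox6b1, a complex IV subunit, and that for Cox7a1, its muscle-type subunit VIIa, each span more than 60 bases of the genome and so cross an intron. Cox8b is the muscle-type subunit VIII. No separate probe of Ndufa11 or Cox6b1 was available, and where these probes lie along their transcripts was not looked up. Their folds below are therefore those of the printed stretches only.
Ndufa11 brightest probe, chr17:56857241-56857300 (+): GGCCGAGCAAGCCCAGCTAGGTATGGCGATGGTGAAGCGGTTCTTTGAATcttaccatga
Ndufa11 other probe, chr17:56857231-56857290 (+): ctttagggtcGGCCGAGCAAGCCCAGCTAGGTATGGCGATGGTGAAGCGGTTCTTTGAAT
Cox6b1, chr7:31409575-31411071 (-): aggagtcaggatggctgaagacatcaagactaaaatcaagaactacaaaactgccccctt
Cox7a1, chr7:30970337-30970948 (+): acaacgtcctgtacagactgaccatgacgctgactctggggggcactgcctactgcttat
Cox8b, chr7:148084852-148084911 (-): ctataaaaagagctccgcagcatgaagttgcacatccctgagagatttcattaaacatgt

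Most oxidative phosphorylation genes were lower in the eye than in the hypothalamus, and a small set was higher, the muscle-type Cox8b and Cox7a1 by the most. In WT mice 68 of the 88 genes were lower in the eye, 13 were higher and 7 did not pass the test (limma, adjusted p below 0.05 over all 41174 probes). Counted as probes, 87 of 125 were lower and 26 higher, whereas over all probes of the array 33.6% were lower and 42.1% higher. The median difference of the 88 genes was -0.69, against 0.16 over all probes. In the Per3-/- mice, which are other animals, 68 genes were lower and 14 higher, with a median of -0.65 against 0.23 over all probes. As probes these were 86 lower and 25 higher, beside 33.4% and 44.4% of all probes.

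The calls were nearly the same genes in either genotype. In both genotypes 68 genes were lower and 13 higher, and 0 were called in opposite directions. The 13 higher genes were Atp5a1, Atp5b, Atp5c1, Atp5g3, Cox4i2, Cox4nb, Cox7a1, Cox7a2l, Cox7c, Cox8b, Ndufa4, Ndufb11 and Ndufv3. Ndufa9 was called in 1 genotype only, and Atp5e, Atp5f1, Cox6b2, Cox8c, Ndufs4 and Uqcrc1 in neither. For 52 genes every eye array lay below every hypothalamus array. For 5 (Cox4nb, Cox7a1, Cox7c, Cox8b and Ndufb11) every eye array lay above, and for 31 the tissues overlapped. Such separation was not counted over all probes, of which 33.6% were called lower and 42.1% higher in WT eyes. These counts therefore describe the members only and do not set them apart from other genes. Under 3 other scalings of the arrays, 73 of the 81 WT calls kept both call and direction. Those that did not included Atp5b, Atp5g3, Cox4i2, Cox6c, Ndufa8, Ndufv3 and Sdhb.

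**Figure D1:**
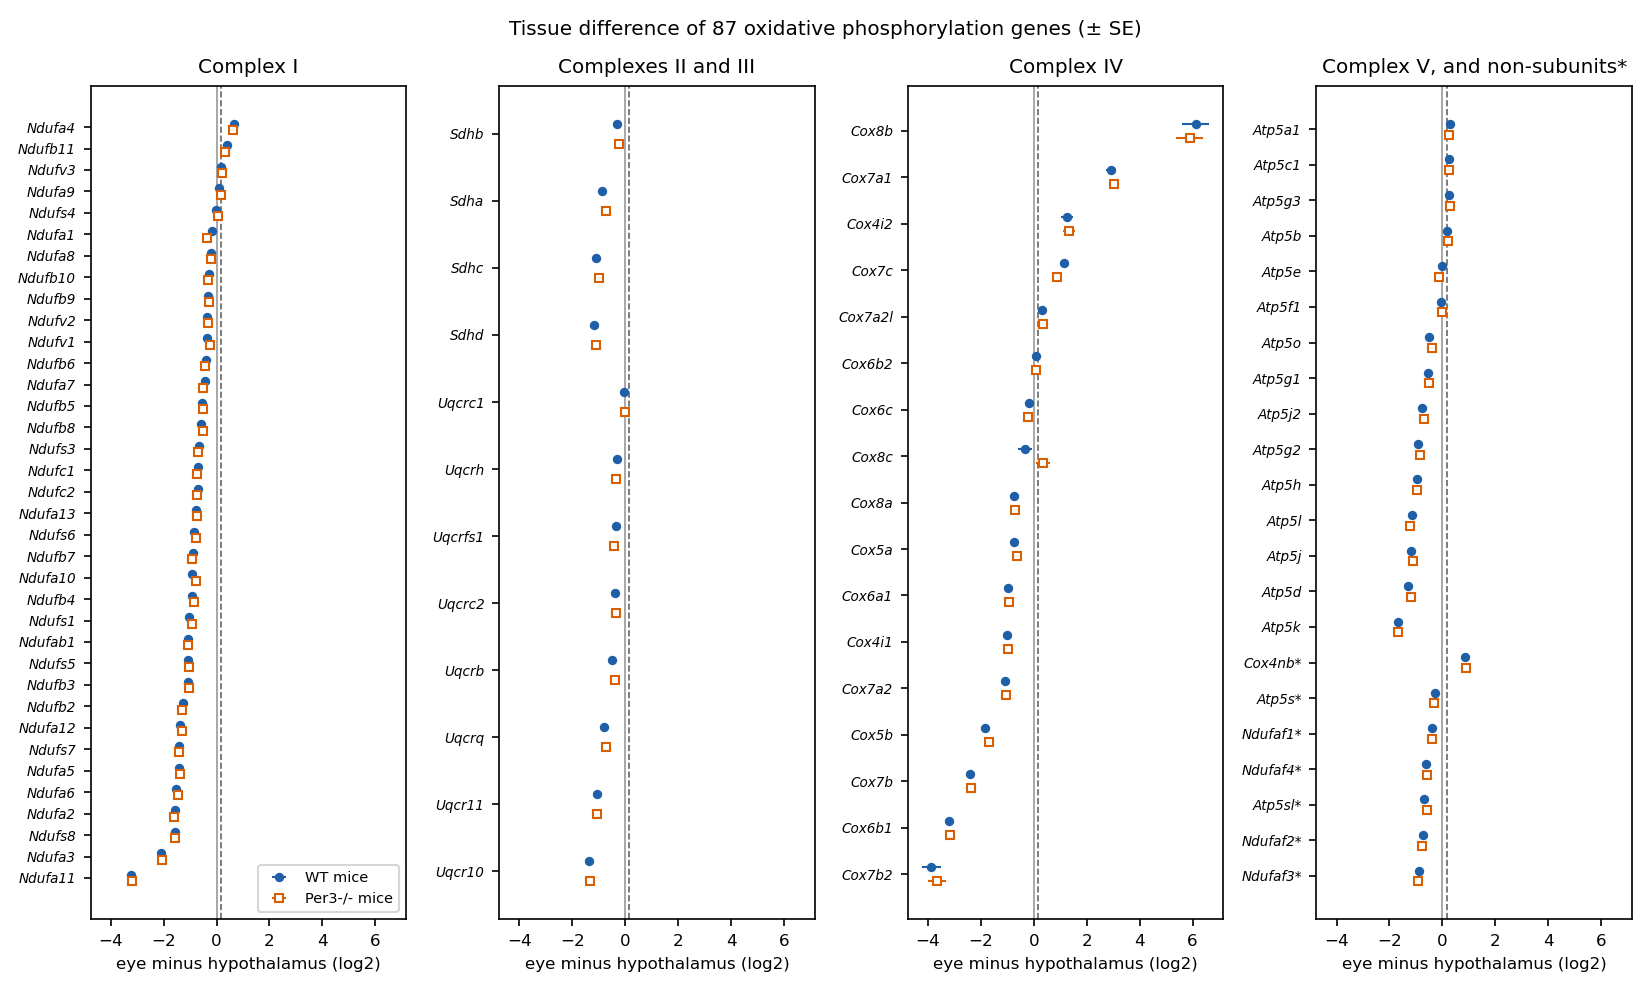
Difference in log2 signal between eye and hypothalamus for 87 of the 88 genes, grouped by complex, with its standard error; filled circles are WT and open squares Per3-/- mice, the solid line is 0 and the dashed line the WT median of all probes. Most genes lie to the left of 0 in both genotypes, and Cox8b (6.11 in WT) and Cox7a1 (2.91) lie far to the right.

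Complex I, as placed by name, was lower in the eye for 32 of 37 genes in WT mice and higher for 3, Ndufa4 among them, with a median of -0.72. Ndufa11 had the largest difference. Its level ran from 0.33 to 0.68 (median 0.57) in the 7 WT eyes and from 3.66 to 3.88 (median 3.74) in the 8 WT hypothalami. All eyes lay below all hypothalami, and the same held in Per3-/- mice, with 0.34 to 0.87 against 3.64 to 3.78. The WT difference was -3.23 ± 0.06 (SE), 9.40-fold lower in the eye (limma, adjusted p = 7.78e-27), and the second Ndufa11 probe, which overlaps the first, gave -3.31. Ndufa3, another accessory subunit, was 4.23-fold lower (-2.08 ± 0.07, adjusted p = 3.41e-22). Its WT eyes ran from 2.70 to 3.03 and its WT hypothalami from 4.91 to 5.09.

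Genes of the catalytic core of complex I and of its accessory subunits were both among the lower ones, in a grouping made after the values were seen. In the core, which carries the flavin and the iron-sulphur clusters, genes called lower in WT eyes included Ndufs8 at -1.59 ± 0.06, Ndufs7 at -1.43 ± 0.09, Ndufs1 at -1.02 ± 0.06 and Ndufv1 at -0.37 ± 0.06. Ndufs8 read 1.03 to 1.43 in WT eyes and 2.71 to 3.0 in WT hypothalami. Accessory subunits besides those above included Ndufa2 (-1.57 ± 0.07) and Ndufab1, the mitochondrial acyl carrier protein (-1.07 ± 0.06), while the accessory Ndufs4, at -0.0027, did not pass. All 4 assembly factors caught by name, Ndufaf1 to Ndufaf4, were called lower, by -0.90 ± 0.07 for Ndufaf3 to -0.39 ± 0.07 for Ndufaf1.

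Ndufa4 went the other way. This protein was first placed in complex I and is now known as a subunit of cytochrome c oxidase. Its level was 5.56 to 5.96 in WT eyes (median 5.82) and 5.04 to 5.27 in WT hypothalami (median 5.17). The groups of a genotype did not overlap, the Per3-/- mice reading 5.62 to 6.18 in eyes and 4.74 to 5.58 in hypothalami. The WT difference was 0.67 ± 0.09 (adjusted p = 5.49e-08). Ndufb11, an accessory subunit of the membrane arm, was higher by 0.38 ± 0.06 (adjusted p = 7.15e-07) with eyes at 6.53 to 6.85 and hypothalami at 6.23 to 6.42.

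All 4 genes of complex II, the enzyme shared with the citric acid cycle, were lower in the eye. Sdhd and Sdhc encode the membrane anchors. For Sdhd the WT eyes lay at 3.30 to 3.75 and the hypothalami at 4.63 to 4.75, a difference of -1.17 ± 0.06 (adjusted p = 3.41e-16). Sdhc differed by -1.09 ± 0.07 (adjusted p = 3.87e-14). Sdha, the flavoprotein, gave -0.86 ± 0.07 from its brightest probe, but -0.25 and 0.86 from its other probes, each called. Sdhb, the iron-sulphur subunit, had the smallest difference of the 4, -0.32 ± 0.08 (adjusted p = 0.00125), with overlapping levels of 3.53 to 4.14 in eyes and 4.05 to 4.29 in hypothalami. Its call was lost with quantile normalization, at -0.13.

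In complex III, 7 of 8 genes were lower and 0 higher, with a median of -0.44. Uqcr10 and Uqcr11, the smallest subunits of the complex, differed by -1.37 ± 0.08 (adjusted p = 2.58e-15) and -1.08 ± 0.08 (adjusted p = 8.23e-13). Uqcr10 read 4.83 to 5.21 in WT eyes and 6.33 to 6.53 in WT hypothalami, with no overlap. Uqcrc1, a core protein of the complex, was the gene that did not pass, at -0.06 ± 0.06 (adjusted p = 0.344) with eyes at 4.80 to 5.26 and hypothalami at 5.02 to 5.18.

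Complex V genes went both ways. Of 15 genes 9 were lower and 4 higher, with a median of -0.55. The higher 4 included the α, β and γ subunits of the catalytic head. Atp5a1 (α) differed by 0.29 ± 0.07 (adjusted p = 0.000297) and Atp5c1 (γ) by 0.26 ± 0.06 (adjusted p = 0.000192). These are small steps: Atp5c1 read 6.59 to 6.95 in WT eyes and 6.43 to 6.56 in WT hypothalami. The second probe of Atp5a1 went the other way, at -0.82, and Atp5b (β), higher by 0.19, lost its call under all 3 other scalings and turned to -0.12 with quantile normalization. Among the lower genes was Atp5k, subunit e of the membrane part, with WT eyes at 3.25 to 3.68 against hypothalami at 5.14 to 5.29 (-1.66 ± 0.08, adjusted p = 6.04e-18). Atp5d, the δ subunit at the foot of the head, was lower by -1.30 ± 0.06 (adjusted p = 1.62e-17). Atp5o, which holds the stator to the head, was lower by -0.51 ± 0.07 (adjusted p = 1.06e-07). Atp5j and Atp5l, of the stator and the membrane part, were lower by -1.19 ± 0.07 and -1.16 ± 0.06. Atp5f1, the stator's subunit b, was at -0.04 ± 0.06 (adjusted p = 0.502).

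Atp5g1, Atp5g2 and Atp5g3 encode precursors of the same mature c subunit, which forms the rotor ring. They did not move alike. Atp5g2 was lower in the eye by -0.92 ± 0.07 (adjusted p = 8.87e-13) and Atp5g1 by -0.55 ± 0.10 (adjusted p = 1.24e-05). Atp5g3 was higher by 0.24 ± 0.08 (adjusted p = 0.00667). For Atp5g3 the tissues overlapped, with 6.88 to 7.35 in WT eyes and 6.76 to 6.98 in WT hypothalami, and with quantile normalization the difference was 0.08 and not called.

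In complex IV 10 of 17 genes were lower and 5 higher, with a median of -0.74, and the difference of Cox8b was the largest of all members. The genes of its tissue isoforms were compared family by family, all chosen whatever their values. In subunit VIII the ubiquitous Cox8a was lower in the eye, at 5.86 to 6.18 (median 6.05) in WT eyes and 6.64 to 6.92 (median 6.76) in WT hypothalami (-0.74 ± 0.07, adjusted p = 1.92e-10). The muscle form Cox8b was at 3.58 to 4.58 (median 4.19) in WT eyes and at -3.36 to -0.24 (median -2.44) in WT hypothalami. Every eye stood above every hypothalamus. The difference was 6.11 ± 0.51, 69.3-fold (adjusted p = 5.25e-12), and in Per3-/- mice 5.89, with eyes at 3.85 to 5.01 and hypothalami at -3.07 to 0.53. Cox8c, known from testis, was well above background on 0 of 14 eye arrays and 1 of 16 hypothalamus arrays.

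Subunit VIIa showed a like division. Cox7a2, the ubiquitous form, was lower in the eye by -1.08 ± 0.07 (adjusted p = 5.46e-15), with WT eyes at 4.87 to 5.23 and hypothalami at 5.92 to 6.20. The muscle form Cox7a1 ran from 3.75 to 5.0 (median 4.73) in WT eyes and from 1.46 to 1.68 (median 1.58) in WT hypothalami. All eyes were higher, by 2.91 ± 0.17 or 7.51-fold (adjusted p = 1.48e-15). Its spread was wide among eyes and narrow among hypothalami, which were all well above background. Cox7a2l, a relative that takes part in joining respiratory complexes into supercomplexes, was higher in the eye by 0.33 ± 0.06 (adjusted p = 2.14e-05).

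In subunit IV, Cox4i1 was lower in the eye, at 5.82 to 6.21 in WT eyes against 6.97 to 7.25 in WT hypothalami (-1.02 ± 0.07, adjusted p = 4.12e-14). Cox4i2, known from lung and from the response to low oxygen, was dim. It read -5.59 to -4.50 in WT eyes and -7.14 to -5.08 in WT hypothalami, where 5 of 8 arrays were well above background, and the groups overlapped. The difference of 1.25 ± 0.23 (adjusted p = 1.83e-05) dropped to 0.46 with quantile normalization and 0.45 with normexp background correction, and was then not called.

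For subunits VIb and VIIb, the forms known from testis were not called higher in the eye. Cox6b1 was at 0.58 to 0.89 (median 0.63) in WT eyes and at 3.65 to 4.11 (median 3.90) in WT hypothalami. The eyes were all lower, by -3.21 ± 0.09 or 9.24-fold (adjusted p = 7.48e-24). Cox6b2 read -1.14 to -0.54 and -1.18 to -0.64, and its difference of 0.08 ± 0.10 did not pass (adjusted p = 0.462). Cox7b was 5.38-fold lower in the eye (-2.43 ± 0.08, adjusted p = 8.77e-22), with 3.56 to 4.08 against 6.06 to 6.26. Cox7b2 was well above background on 8 of 8 WT hypothalamus arrays, at -3.43 to -3.09, and on 1 of 7 WT eye arrays, where it ranged from -8.25 to -5.62. Its fitted difference of -3.87 ± 0.35 (adjusted p = 3.4e-11) thus rests mostly on eye signals not well above background, and its size is not a measured fold. Cox6a1, measured without its muscle partner, was lower in the eye by -0.99 ± 0.07 (adjusted p = 1.74e-13).

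Subunits of complex IV without a tissue form were mostly lower too, as seen after the data. Cox5b, which binds zinc, was 3.54-fold lower in the eye (-1.83 ± 0.07, adjusted p = 1.58e-19), with 5.08 to 5.5 in WT eyes and 7.03 to 7.36 in WT hypothalami. Cox5a differed by -0.74 ± 0.09 (adjusted p = 5.58e-09). Cox6c was near the threshold, at -0.19 ± 0.08 (adjusted p = 0.0423), overlapped between tissues and lost its call with normexp.

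**Figure D2:**
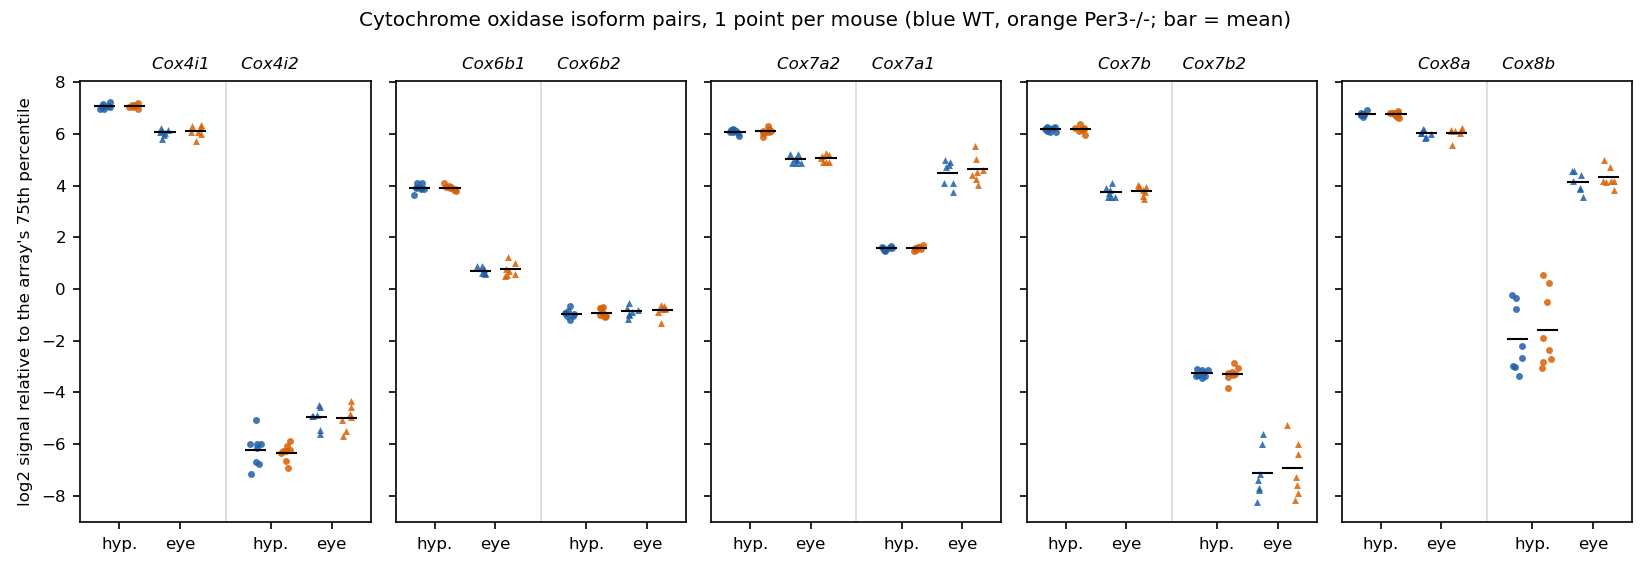
Log2 signal of the paired complex IV isoforms in each mouse, by tissue and genotype, with a bar at each group mean. Cox4i1, Cox6b1, Cox7a2, Cox7b and Cox8a, the ubiquitous forms, sit lower in the eye, whereas Cox7a1 and Cox8b sit higher in every eye than in any hypothalamus and Cox6b2 overlaps between the tissues.

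Cox7c, a small subunit of the same enzyme, was the remaining complex IV gene with all eyes higher than all hypothalami, and was singled out after its values were seen. WT eyes were at 3.08 to 3.58 and WT hypothalami at 1.45 to 2.57 (1.14 ± 0.16, adjusted p = 1.29e-07). Its hypothalamic level moved with the slide. On slide 1 the 4 arrays, from both genotypes, read 1.45 to 2.02, and on slide 4 they read 2.53 to 2.91, with means of 2.15 and 2.48 on slides 2 and 3. In the eye the 4 slide means lay between 3.16 and 3.43. The part of the slide in the tissue difference was not tested.

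Among the members above background, Cox7a1, Cox4i2 and Cox8b varied most between eyes. With the genotype means removed, the SD over eyes was 0.50 for Cox7a1, 0.45 for Cox4i2 and 0.39 for Cox8b, beside a median of 0.17 over the 86 members above background in the eye. Of the 27942 probes above background there, 2448 varied more than Cox7a1. Whole eyes can carry extraocular muscle, and the mean level of 13 skeletal muscle markers ran from 4.82 to 6.08 over the WT and from 5.10 to 6.22 over the Per3-/- eyes. In hypothalami it lay between -4.08 and -3.74, with 10 of the 13 markers well above background on all WT and 11 on all Per3-/- arrays.

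Cox7a1 and Cox8b rose with the muscle markers from eye to eye. The WT eye with the highest muscle marker level, 6.08, had Cox7a1 at 4.93 and Cox8b at 4.55, and the WT eye with the lowest, 4.82, had them at 4.09 and 3.88. In WT eyes Pearson's r was 0.900 for Cox7a1 (exact permutation p = 0.00496, adjusted over 4 relations 0.00661, n = 7) and Spearman's rho 0.893 (exact permutation p = 0.0123, adjusted 0.0246). For Cox8b r was 0.914 (exact permutation p = 0.00377, adjusted 0.00661) and rho 0.929 (exact permutation p = 0.00675, adjusted 0.0246). In Per3-/- eyes r was 0.894 for Cox7a1 (exact permutation p = 0.00496, adjusted 0.00661, n = 7) and rho 0.857 (exact permutation p = 0.0238, adjusted 0.0317). For Cox8b r was 0.861 there (exact permutation p = 0.00853, adjusted 0.00853), but rho was 0.643 and did not pass (exact permutation p = 0.139). Without the 2 mice farthest from the median marker level, r stayed between 0.758 and 0.910 over 5 mice and passed in 0 of the 4 relations (exact permutation, adjusted p between 0.0889 and 0.133). With quantile normalization both WT relations still passed without the 2 farthest mice, with r at 0.928 for Cox7a1 and 0.971 for Cox8b (exact permutation, adjusted p = 0.0333 for both), and neither Per3-/- relation did. All tests were two-sided. A slide holds at most 2 eyes of a genotype, too few for a value within a slide.

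Cox8b is also known from brown fat. In the eye 5 of 6 brown adipocyte markers were well above background on all arrays of either genotype, their mean level running from -2.08 to 1.34, and Ucp1, which defines the cell type, was well above background on 3 of 7 WT arrays. Their part in the level of Cox8b was not tested.

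In the hypothalamus Cox8b varied between mice more than any other member above background. Its SD with genotype means removed was 1.37, against a median of 0.08 over 86 members and 0.39 for Cox7c, the next. Of the 27180 probes above background there, 27 varied more. No relation of Cox8b with the muscle markers passed in that tissue (r = -0.523 in WT and -0.195 in Per3-/- mice, exact permutation p = 0.191 and 0.642, n = 8 each). Its level moved instead with 6 markers of the choroid plexus, the epithelium that secretes cerebrospinal fluid, a relation looked for after the values were seen. In the 7 blocks with the highest marker levels, -0.42 to 1.35, Cox8b read -1.89 to 0.53. In the other 9 blocks, at -3.06 to -1.49, it read -3.36 to -2.20.

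That relation was also computed in each genotype alone. The gene and the marker list were picked after the values were seen. The p-values below do not account for that choice. In WT mice r was 0.989 (exact permutation p = 0.000446, adjusted over 4 relations 0.00179, n = 8) and rho 0.905 (exact permutation p = 0.00456, adjusted 0.00913). In Per3-/- mice r was 0.946 (exact permutation p = 0.00114, adjusted 0.00228, n = 8) and rho also 0.905. Without the 2 mice farthest from the median marker level r was 0.970 and 0.933 over 6 mice (exact permutation, adjusted p = 0.0278 for both). Within the 9 lower blocks r was 0.622 and rho 0.5, and within the 7 upper blocks 0.912 and 0.857. The 4 blocks on slide 4 all had Cox8b at -3.36 to -2.69, whereas slides 1 to 3 each held higher and lower blocks. Cox7a1 stayed at 1.46 to 1.71 in all 16 blocks, and its relation with these markers did not pass (r = 0.151 and 0.117, exact permutation p = 0.709 and 0.790, n = 8 each). Without the 2 farthest mice its r was -0.259 in WT and -0.750 in Per3-/- mice, and did not pass either. Whether Cox8b is transcribed in the choroid plexus of these mice was not tested.

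**Figure D3:**
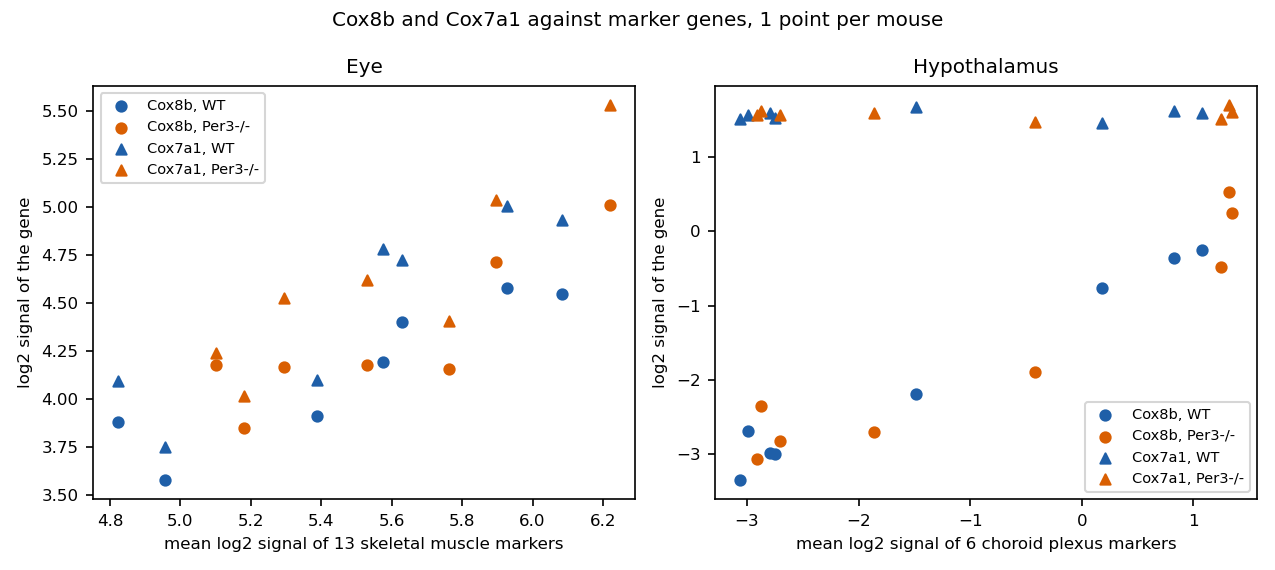
Log2 signal of Cox8b and Cox7a1 in each mouse against the mean log2 level of 13 skeletal muscle markers in the eye and of 6 choroid plexus markers in the hypothalamus, by genotype. Both genes rise with the muscle markers in the eye, while in the hypothalamus Cox8b rises with the choroid plexus markers from -3.36 to 0.53 and Cox7a1 stays between 1.46 and 1.71.

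Many other members shared the eye pattern. Over 14 eyes with genotype means removed, 78 of the 88 genes correlated positively with the muscle markers, with a median r of 0.459 against 0.0254 over the 27942 probes above background. Pearson's r was above 0.8 for 9 genes, among them Ndufs1 (0.925), Cox7a1 (0.894), Cox8b, Atp5g1, Atp5a1, Sdha, Sdhd and Atp5g3, and for 1.99% of those probes. In the hypothalamus the median r with the choroid plexus markers was -0.07. Cox8b alone was above 0.8 (0.965), beside 0.460% of the 27180 probes above background there, and Cox6b2 followed at 0.744. The points of these correlations share their arrays and each array's scaling, so they are descriptions and carry no p.

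**Figure D4:**
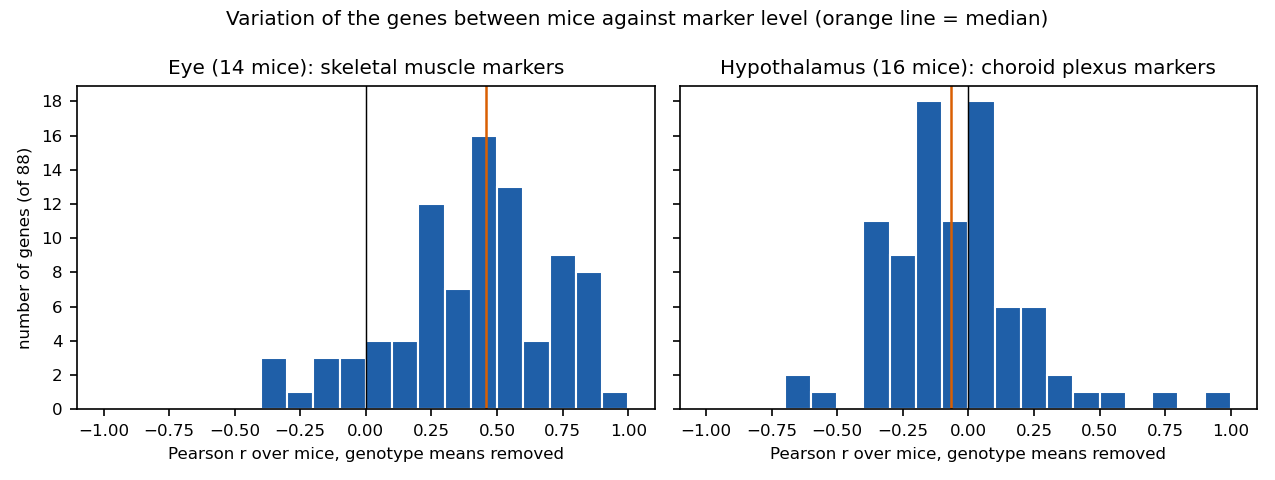
Histograms of Pearson's r of the 88 genes with the skeletal muscle markers over 14 eyes and with the choroid plexus markers over 16 hypothalami, genotype means removed, with the median marked. The eye values centre on 0.459 and reach 0.925, and the hypothalamus values centre near 0, with Cox8b apart at 0.965.

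Where a gene had several probes they often disagreed. Of 29 such genes, 14 had probes of opposite sign in the WT tissue difference and 9 had probes called both ways: Atp5a1, Cox4nb, Ndufa8, Ndufb8, Ndufc1, Ndufs5, Ndufv2, Sdha and Uqcrq. The bright probe of Ndufb8, an accessory subunit of complex I, gave -0.58 and its dim probe 1.59, and for Uqcrq, a subunit of complex III, they gave -0.81 and 1.42. The dim probe of Ndufs5 gave 1.60, but was well above background on 1 of 7 WT eye arrays and 0 of 8 WT hypothalamus arrays. Probes of 1 gene that overlap differed by a median of 0.17 in 6 genes, against 1.03 in the 23 genes with separate probes. Overlapping probes could disagree too. Those of Ndufa8, which share 40 of their 60 bases, gave -0.20 and 0.21 and were called both ways. All probes were called lower for 58 genes and higher for 11, 59 of the 88 genes having only 1 probe. Which transcripts separate probes detect was not tested.

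The promoters were read from RefSeq on GRCm38.p6, 250 bases before to 50 after the start, which gave a sequence for 74 of the 88 genes. The 3 motifs searched on both strands belong to factors known to bind promoters of respiratory chain genes. The NRF1 motif GCGCANGCG was found in 20 of 74 promoters (27.0%) and in 6.47% of all 27025. The GABP motif CCGGAAGT was found in 6.76% and 4.00%, and the YY1 motif AANATGGCG in 12.2% and 2.51%. A match is a stretch of letters and not a bound site. The promoter of Ndufa11, the member with the largest difference of complex I, is shown because it holds the NRF1 motif on both strands of 1 palindrome, in capitals. Those of Cox7a1, Cox8b and Cox6b1 hold 0 matches of the 3 motifs.
Ndufa11 promoter, GRCm38.p6 chr17:56717512-56717811 (+): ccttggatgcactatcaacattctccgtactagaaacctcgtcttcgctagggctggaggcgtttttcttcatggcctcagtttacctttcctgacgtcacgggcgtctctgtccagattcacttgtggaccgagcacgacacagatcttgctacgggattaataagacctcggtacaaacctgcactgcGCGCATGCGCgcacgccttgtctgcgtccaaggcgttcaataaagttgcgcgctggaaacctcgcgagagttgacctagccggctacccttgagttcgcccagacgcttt

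Genes around the respiratory chain were taken from 6 lists. For comparison, 33.6% of all probes were called lower and 42.1% higher in the WT eye, with a median of 0.16. Of 17 genes of the citric acid cycle and pyruvate dehydrogenase, 14 were lower and 2 higher in the WT eye, with a median of -0.62. Dlat, the transacetylase of pyruvate dehydrogenase, had the largest difference (-1.32 ± 0.07, adjusted p = 9.29e-17), followed by Idh3g, of isocitrate dehydrogenase (-0.98 ± 0.08). Of 23 assembly factors, 15 were lower and 8 higher (median -0.61), led by Lyrm7 of complex III (-2.67 ± 0.05) and Tmem70 of complex V (-1.87 ± 0.08). Of 12 electron carriers and subunits not caught by the names, 6 were lower and 4 higher, with Usmg5, now known as a complex V subunit, at -1.49 ± 0.07 and the ATPase inhibitor Atpif1 at -1.40 ± 0.06.

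Regulators of mitochondrial genes were mostly higher in the WT eye, 9 of 14 (64.3%), with 4 lower (28.6%) and a median of 0.49. Over all probes these shares were 42.1% and 33.6%. The nuclear receptor Esrrb, known in rods, rose to 3.26 in WT eyes from -2.69 in WT hypothalami (5.95 ± 0.15), and Nrf1, whose product binds the motif above, was higher by 1.72 ± 0.05. Of 17 glycolysis genes 6 were higher (35.3%) and 8 lower (47.1%), so both directions were common, as over all probes. Their median was -0.12. The hexokinase Hk2 was higher by 7.55 ± 0.12 and the neuronal enolase Eno2 lower by -2.15 ± 0.05. Of 5 uncoupling proteins 1 was higher and 2 lower, Slc25a14 (-2.36 ± 0.05) and Slc25a27 (-1.85 ± 0.07), both known from brain.

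The second question was whether loss of Per3 changed these genes. The Per3 probe (mm9 chr4:150379256-150379315) stayed above background on every array. It read -3.79 to -3.28 in WT and -4.21 to -3.59 in Per3-/- hypothalami (-0.51 ± 0.09, adjusted p = 0.0670) and -3.55 to -2.57 and -4.12 to -2.90 in eyes (-0.45 ± 0.23), neither of which passed. Whether this probe lies in the disrupted part of the gene is not given in the sources used here.

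No member passed the test between genotypes in either tissue. In the hypothalamus 0 of 125 probes were called at an adjusted p below 0.05, beside 0.0413% of all probes, and 0 were below 0.05 unadjusted, beside 2.82%. In the eye 0 were called, beside 0.0194%, and 0 were below 0.05 unadjusted, beside 1.8%. By the methods' t-test 0 were called in either tissue, and 0 in the hypothalamus and 1 in the eye were below 0.05 unadjusted. The median difference (Per3-/- minus WT) of the 88 genes was -0.0076 for hypothalami and 0.03 for eyes. The precision allowed a bound: for 84 of 88 genes in each tissue the 95% interval of the difference lay within 0.5 on either side of 0. The genes with wider intervals were Cox4i2, Cox7c, Cox8b and Cox8c in the hypothalamus and Cox4i2, Cox7a1, Cox7b2 and Cox8b in the eye. For these a change of that size cannot be told from none at this spread.

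The members of lowest p show how small the differences were. In the hypothalamus they were Cox8c (-0.57 ± 0.33), which was near background throughout, Atp5sl (-0.07 ± 0.04), Uqcrc1 (-0.07 ± 0.04), Sdha (-0.05 ± 0.04) and Ndufa10 (-0.05 ± 0.04). All 5 had an adjusted p of 0.991, and the lowest unadjusted limma p, that of Cox8c, was 0.101. In the eye they were Ndufa1 (-0.13 ± 0.06), Ndufa10 (0.11 ± 0.08), Atp5d (0.11 ± 0.09), Atp5o (0.11 ± 0.10) and Cox7c (-0.11 ± 0.10). Levels of Ndufa1, an accessory subunit encoded on the X chromosome, were 5.71 to 6.16 in WT and 5.69 to 5.84 in Per3-/- eyes, so the groups overlapped. For Cox8b the difference was 0.38 ± 0.65 in the hypothalamus, with an interval from -0.999 to 1.76, and 0.17 ± 0.20 in the eye.

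**Figure D5:**
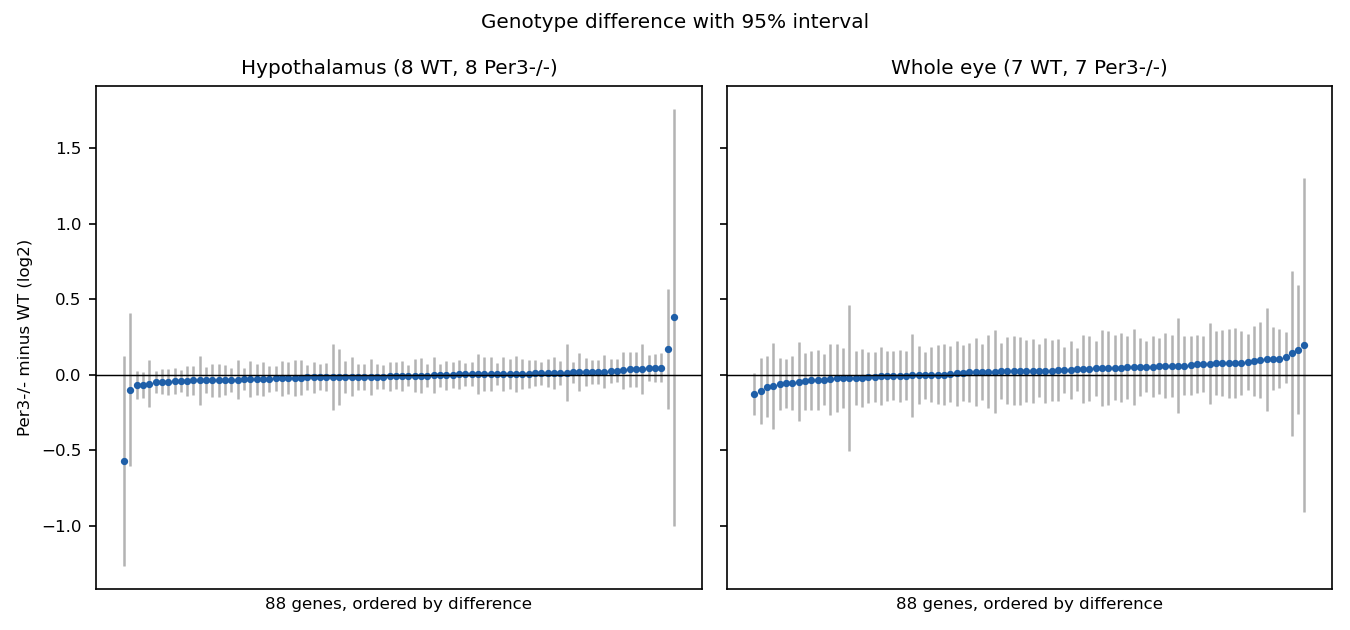
Difference in log2 signal between Per3-/- and WT mice for each of the 88 genes, with its 95% interval, with 1 panel for each tissue. Almost all intervals lie within 0.5 of 0, and the widest in the hypothalamus, that of Cox8b, runs from -0.999 to 1.76.

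Every slide carried arrays of both genotypes, so the difference was also taken within slides. The median over the 88 genes was -0.049, -0.029, -0.0090 and 0.053 on the hypothalamus slides and -0.094, 0.022, -0.0052 and 0.094 on the eye slides, and so changed sign between slides in both tissues. The first eye slide held 1 array of each genotype.

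Per3 lies on chromosome 4, as do 5 members: Ndufaf4, Ndufb6, Uqcrh, Ndufs5 and Sdhb. Their differences lay between -0.03 and 0.03 in the hypothalamus and between -0.0088 and 0.07 in the eye, and the widest of their 95% intervals, that of Sdhb in the eye, ran from -0.20 to 0.34. The nearest to Per3 of the 5 was Sdhb (mm9 chr4:140522514-140527081), at -0.03 ± 0.04 and 0.07 ± 0.12.

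The genotype difference was compared between the tissues in the fit over all 30 arrays. Of 125 probes 0 were called, beside 0.00486% of all probes, and 1, that of Ndufa1, was below 0.05 unadjusted, beside 2.21%. The effect in the eye minus that in the hypothalamus was -0.17 ± 0.07 (limma, adjusted p above 0.99). Of the 6 lists around the respiratory chain, 0 genes were called between genotypes in either tissue. Unadjusted, 4 of their genes were below 0.05 in the hypothalamus, beside 2.82% of all probes, and 1 in the eye, beside 1.8%. The 4 were 2 of 5 uncoupling proteins, 1 of 12 electron carriers and 1 of 14 regulators. The 1 in the eye was among 17 glycolysis genes.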

How the data were processed

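RNA of the hypothalamic block (8 WT, 8 Per3-/- mice) and the whole eye (7 and 7) was hybridised by the authors to 1-colour (Cy3) Agilent arrays carrying 60-mers, 1 array per mouse and tissue. Eyes of WT mouse 2 and Per3-/- mouse 1 were not analysed here. The deposited files hold an intensity per spot, which the authors' Feature Extraction software had background-subtracted, with flags per spot. The deposited value table holds log2 values, per array and probe, that correlate at 0.9999 or more with the present values after centring each probe. It served as an alternative, and its centring and direction were inferred from that match. Its column medians lay between -0.0725 and 0.0803.

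From the intensities, log2 was taken and the 75th percentile of each array subtracted. Control spots, non-uniform spots and outlier spots were removed, and spots of 1 probe were averaged. The eye files carry no gene names, so probes were matched by probe name to the hypothalamus files, whose names and mm9 positions were used. Genotypes were compared within each tissue, and tissues within each genotype in 1 fit to the 30 arrays that treats mouse as random (correlation 0.059), with limma 3.58.1 in R 4.3.3 and Benjamini-Hochberg adjustment over 41174 probes. Standard errors and 95% intervals are those of the model. Correlations used scipy 1.17.1 in Python 3.11.15 with pandas 2.3.3 and numpy 2.4.6. The genotype fits, and the tissue fit without its mouse block, were tested on simulated data with independent noise. The tissue fit with the mouse as random was not tested in this way.

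Genes were named by rule: all isoform families and complex II, the 2 largest differences per direction in complexes I, III, IV and V, the 5 lowest genotype p-values per tissue, members on chromosome 4, and the 2 largest differences per list. Values of 1 member are not reported here, though counts over all members include it. The members and lists were chosen with earlier results of these data known. The labels give a replicate number and name no mouse, so taking 1 number in both tissues as 1 mouse is an inference. Deviations from the group means of eye and hypothalamus with the same number and genotype correlated at only -0.110 to 0.187. Same-numbered mice of the 2 genotypes sat on the same slide, and their deviations from the group means correlated at 0.0201 to 0.671 in the eye and at -0.211 to 0.389 in the hypothalamus, so numbers were not taken as pairs. Alternatives were quantile normalization, normexp (offset 50, spot medians in the eye), median centring, bright probes only, slide and replicate blocks, the methods' t-test, the value table and leaving out each mouse. Precision is limited by the number of arrays and, for dim probes, by the background.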

Additional observations from a re-analysis of the deposited data

Results flagged for a closer look

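For each of the 40 named members, and for the median deviation of all members per array, each group of 7 or 8 mice was searched for 1 mouse far from its group. Of the 164 searches 10 found such a mouse, and chance gives about 1 in 20 groups. In the hypothalamus, Atp5k was at 4.87 in Per3-/- mouse 1 (the others at 5.19 to 5.28) and Sdhd at 4.63 in WT mouse 1 (4.71 to 4.75). There, 3 genes had a high mouse: Atp5g2 at 5.38 in WT mouse 4 (5.13 to 5.24), Cox7a2l at 3.73 in WT mouse 6 (3.53 to 3.60) and Sdha at 3.01 in Per3-/- mouse 5 (2.85 to 2.92). Cox8c at -6.04 in WT mouse 7 (-8.91 to -7.60) was its only hypothalamic value well above background. In the eye, Per3-/- mouse 5 was low for Cox8a, at 5.56 (6.02 to 6.24), and for Cox6b2, at -1.32 (-0.88 to -0.61). WT mouse 5 was low for Ndufa3, at 2.70 (2.89 to 3.03), and for Ndufb6, at 3.99 (4.18 to 4.32).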

How the results depend on the processing

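The tissue counts held under every alternative run: 83 to 87 probes were lower and 22 to 27 higher in WT eyes, and 84 to 87 and 23 to 25 in Per3-/- eyes, with gene medians between -0.74 and -0.61 and between -0.70 and -0.56. Quantile normalization moved the median of all probes from 0.15 to -0.07. Calls between genotypes stayed at 0 throughout. Unadjusted counts in the hypothalamus were 3 with normexp and 1 with slide as a block (Cox4i2, Cox8c and Ndufs5, and Ndufc1), and 0 to 1 without each mouse. In the eye they were 1 with the methods' t-test and 0 to 1 without each mouse. For the difference between tissues they were 2 with median centring, normexp, quantile normalization or bright probes only, and 1 to 5 without each mouse, the 5 without Per3-/- mouse 5. With the replicate number as a block, the count below 0.05 was 0 in the hypothalamus and 1 in the eye (Atp5sl), and calls over all probes fell from 17 to 5 and from 8 to 1. With the mouse as fixed terms in place of a random block, 87 probes were lower and 25 higher in WT eyes, and 84 and 23 in Per3-/- eyes.

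Among called members the direction turned for Atp5b alone, to -0.12 in WT and -0.14 in Per3-/- mice with quantile normalization, where it was not called. The call of Sdhb in Per3-/- mice (-0.22) was lost without Per3-/- mouse 2, 4 or 7, at -0.17, -0.18 and -0.21. Of the genes that did not pass as reported, Uqcrc1 was at 0.027 with normexp and 0.049 with quantile normalization in WT mice, and in Per3-/- mice at -0.048 with median centring, -0.00862 with the mouse as a fixed replicate block and -0.033 to 0.040 without each mouse. With quantile normalization it was called higher there, at 0.102. Cox6b2 was at -0.044 in WT and -0.036 in Per3-/- mice with quantile normalization. Cox8c was at 0.049 with normexp in WT mice, and in Per3-/- mice at -0.022 with quantile normalization and at 0.626, called higher, with normexp. Without the 2 mice farthest from the median marker level, r with the muscle markers was 0.827 and 0.758 for Cox7a1 and 0.910 and 0.815 for Cox8b (WT and Per3-/-), no longer past the threshold with 5 mice, and r of Cox7a1 with the choroid plexus markers was -0.259 and -0.750. The cause of these shifts was not tested. Dim probes (Cox8c, Cox7b2 in the eye, Cox4i2) compare signals near background.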
